A study of Mus musculus with 6 samples.

Results

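The YAP and TEAD pathway genes described here are 10 genes chosen by symbol: the coactivator genes Yap1 and Wwtr1, the transcription factor genes Tead1 and Tead2, the kinase gene Lats2, the angiomotin family genes Amotl1 and Amotl2, and the target genes Ctgf, Cyr61 and Ankrd1. All 10 were found among the 16472 genes of the authors' deposited table, and each had been given an adjusted p. HT22 is an immortalised mouse hippocampal line used as a model of neurons, and AA147 is a compound known to activate ATF6, a sensor of misfolded proteins in the endoplasmic reticulum, and NRF2, a regulator of antioxidant genes. A group of 3 cultures was exposed to AA147, at a dose the labels write as 10 mM, and 3 cultures received the vehicle DMSO. The unit of that dose is doubtful, since such compounds are usually given in the micromolar range, and nothing in the data settles it. Both groups were collected after 16 h, both were grown in medium with fetal bovine serum, and total RNA was sequenced as non-stranded mRNA libraries. All libraries come from 1 cell line, and the labels do not say whether the 3 of a group were separate experiments, so the errors may be technical.

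In the Hippo pathway, a kinase cascade ending in LATS1 and LATS2 phosphorylates the coactivators YAP (Yap1) and TAZ (Wwtr1), which are then held in the cytoplasm or degraded. Unphosphorylated YAP and TAZ enter the nucleus and bind TEAD transcription factors, which switch on genes for secreted matrix-associated proteins such as CYR61 and CTGF and for the nuclear ankyrin repeat protein ANKRD1. Amotl2 and Lats2 encode inhibitors of YAP and are themselves YAP targets, so that the pathway holds its own brakes. YAP activity is set largely after transcription, by phosphorylation and location, which messenger RNA levels do not show.

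The authors' deposited table gives 1 comparison of the groups, with a mean normalized count per gene, a log2 fold change, its standard error (SE) and an adjusted p. No value for a single library was analysed here, so neither the depth of a library nor the overlap of the groups can be given. The table does not name the numerator of the fold change. Positive values are read as higher with AA147, and every direction below depends on that reading. In the authors' deposited table, Nqo1, a classical NRF2 target, lay at 0.93 (SE 0.067), and Hspa5, a chaperone gene known as an ATF6 target, at -0.80 (SE 0.061). These known markers of the compound's activity thus have opposite signs.

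The label of a neuronal line was set against marker genes. Of 14 neuron markers, 4 had a row, and in the authors' deposited table the means were 1199 for Tubb3 and 562 for Syn1 but 6.24 for Stmn2 and 3.93 for Slc17a7. Tubb3 rose by 0.43 on the log2 scale (adjusted p 5.67e-05, SE 0.092) in the authors' deposited table. Syn1, at 0.13 (SE 0.128), was not called, and Stmn2 and Slc17a7 had no adjusted p. Rbfox3, Map2, Syp, Snap25, Nefl, Nefm, Nefh, Dcx, Gad1 and Prox1 were not analysed here. Of 10 fibroblast and mesenchymal markers 9 had a row, with means from 181 for Dcn to 254004 for Col1a2 in the authors' deposited table. Of these 9, 6 fell and 0 rose (Col1a1, Col1a2, Col3a1, Pdgfrb, Pdgfra and Dcn), and their median log2 fold change over the 9 was -0.81, while Thy1, Vim and Fn1 were not called. Of all 13597 genes with an adjusted p, 11.1% fell and 9.05% rose. Of the glial markers, Slc1a3, with a mean of 927 over the libraries, fell by 1.30 on the log2 scale (SE 0.089), and Csf1r, with a mean of 48.0, rose by 0.95 (SE 0.34) in the authors' deposited table. The other glial markers with a row had means of 28.8 or less. Lum and the glial markers Gfap, Aqp4, S100b, Aif1, Cx3cr1, Ptprc, P2ry12, Olig1, Olig2, Mog and Sox10 were not analysed here. The part of these marker changes in the results below was not tested. In such bulk libraries, fewer cells of a type and less RNA per cell cannot be told apart.

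In the authors' deposited table, 1 of the 10 genes rose and 1 fell at an adjusted p under 0.05, and 8 did not pass. Cyr61 rose by about 50%, Amotl2 fell by 30.2%, and the other 8 had log2 fold changes between -0.18 and 0.13. The share of all 13597 genes with an adjusted p that were called was 20.2%, with 9.05% positive and 11.1% negative. Among the 6038 genes whose means lay within the range of the 10 genes, 26.6% were called, 12.6% positive and 14% negative. The count of 2 in 10 is thus near the background. The 10 genes had a median of -0.06 on the log2 scale, against 0.01 for all genes tested, and their median absolute value of 0.11 lies beside 0.12 for the genes in the same range of means. An unadjusted p under 0.05 was listed for 4 of the 10, namely Cyr61, Amotl2, Ctgf and Wwtr1, beside 30.6% of all genes tested and 38.4% of those in the same range of means.

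**Figure D1:**
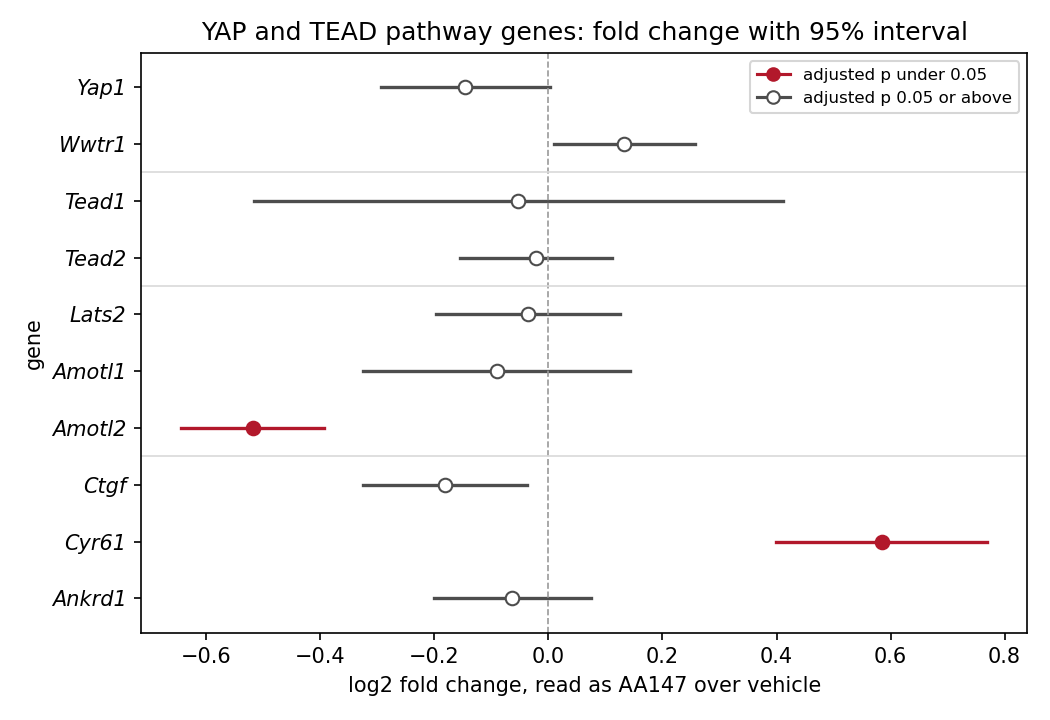
Log2 fold change (x axis) of the 10 genes (y axis) in the authors' deposited table, with 95% intervals computed from the deposited standard errors; filled red points have an adjusted p under 0.05. Cyr61 at 0.58 and Amotl2 at -0.52 stand apart on either side of 0, and the interval of Tead1, from -0.52 to 0.41, is the widest.

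Yap1 and Wwtr1, the paired coactivators, had log2 fold changes of opposite sign, and neither passed the test. Yap1 had a mean of 2441 normalized counts and a log2 fold change of -0.15 (adjusted p 0.170, SE 0.075) in the authors' deposited table. Its 95% interval ran from -0.29 to 0.00, or between 0.816 and 1.00 times the level with vehicle. Wwtr1 had a mean of 3395 and a log2 fold change of 0.13 (adjusted p 0.126, SE 0.063) in the authors' deposited table, with an interval from 0.01 to 0.26. The values of Wwtr1 and Yap1 lay 0.28 apart on the log2 scale. That difference was not tested, because the table does not give how the errors of 2 genes vary together. Per kilobase of transcript the means were 722 for Wwtr1 and 583 for Yap1, so the transcript of TAZ was listed at 1.24 times the level of that of YAP. Transcript lengths are those of a recent annotation and may differ from the models the authors counted.

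The TEAD genes encode the DNA-binding partners, and no member of the family was called. Tead2 had a mean of 3946 and a log2 fold change of -0.02 (adjusted p 0.878, SE 0.068) in the authors' deposited table. Its 95% interval, from -0.16 to 0.11, bounds any change of its transcript to between 0.898 and 1.08 times. Tead1 had a mean of 801 and a log2 fold change of -0.05 (adjusted p 0.919, SE 0.24) in the authors' deposited table, with an interval from -0.52 to 0.41. Tead1 could thus have changed to anything between 0.699 and 1.33 times. The other members of the family, Tead3 and Tead4, were not called in the authors' deposited table, at -0.01 (SE 0.111) and 0.16 (SE 0.096). Per kilobase, Tead2 made up 78.8% of the summed level of the 4 TEAD genes, Tead3 11.2%, Tead4 6.57% and Tead1 3.45%.

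Lats2, the kinase that phosphorylates YAP and TAZ, had a mean of 1763 and a log2 fold change of -0.04 (adjusted p 0.826, SE 0.082) in the authors' deposited table. Its interval ran from -0.20 to 0.13. The paralog Lats1, with a mean of 2129, lay at 0.26 (SE 0.101) in the authors' deposited table and missed the threshold with an adjusted p of 0.0536. With the adjustment made over genes with a mean of 100 or more, Lats1 passed (adjusted p 0.0455).

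The angiomotin genes encode junction-associated scaffolds that bind YAP and keep it out of the nucleus. Amotl2 was the most abundant of the 10 genes by mean, at 8947, and fell by 0.52 on the log2 scale (adjusted p 2.43e-14, SE 0.064) in the authors' deposited table. The fold of 0.698 (95% interval 0.640 to 0.761) corresponds to averages of about 10538 normalized counts with vehicle and 7356 with AA147, if the groups weigh equally and the fold is exact. Among the 10633 genes with a mean of 100 or more, 3.67% had a lower fold change than Amotl2. Amotl1 had a mean of 1393 and a log2 fold change of -0.09 (SE 0.119, adjusted p 0.671), and Amot, the founding member of the family, a log2 fold change of -0.20 (adjusted p 0.523, SE 0.189) in the authors' deposited table. All 3 angiomotin genes thus had negative values, of which that of Amotl2 was called, and the intervals of Amotl1 (-0.32 to 0.14) and Amot (-0.57 to 0.17) both span 0. Per kilobase the mean of Amotl2 was 2067, that of Amot 378 and that of Amotl1 155.

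The target genes Cyr61, Ctgf and Ankrd1 did not move together. Cyr61, which encodes a secreted integrin-binding protein of the CCN family, had a mean of 5599 and rose by 0.58 on the log2 scale (adjusted p 1.94e-08, SE 0.094) in the authors' deposited table. The fold of 1.5 (95% interval 1.32 to 1.70) corresponds to averages of about 4480 normalized counts with vehicle and 6719 with AA147 on the same assumption. Among genes with a mean of 100 or more, 1.12% had a higher fold change than Cyr61. Its SE was 1.47 times the median SE of the 500 genes nearest to it in mean.

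Ctgf, which encodes another secreted CCN protein and is widely used with Cyr61 as a readout of YAP, had a mean of 5102 and a log2 fold change of -0.18 (adjusted p 0.0642, SE 0.074) in the authors' deposited table. Its interval, from -0.33 to -0.04, lies below 0, but the gene missed the threshold once all genes were adjusted for. With the fold changes centred on the median of genes with a mean of at least 100, a shift of 0.01, Ctgf passed at -0.19 (adjusted p 0.0434). The call of Ctgf is therefore a borderline one. Ankrd1 had a mean of 3480 and a log2 fold change of -0.06 (adjusted p 0.60, SE 0.070) in the authors' deposited table. Its interval ran from -0.20 to 0.07, and so left out a rise of the size seen in Cyr61. The value of Cyr61 was 0.77 above that of Ctgf and 0.65 above that of Ankrd1 on the log2 scale, and 1.10 above that of Amotl2. These differences between genes were not tested, for the reason given above.

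Per kilobase of transcript, the 10 genes spanned from 80.4 for Tead1 to 2756 for Cyr61. Cyr61, Amotl2 at 2067, Ctgf at 1870, Tead2 at 1837 and Ankrd1 at 1717 formed the upper group. Ankrd1, the lowest of these, lay above 88.0% of genes that had a known length and a mean of 100 or more. Wwtr1, Yap1, Lats2 at 321, Amotl1 and Tead1 followed. The targets Ctgf, Cyr61 and Ankrd1 were thus among the well expressed genes of these cultures.

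**Figure D2:**
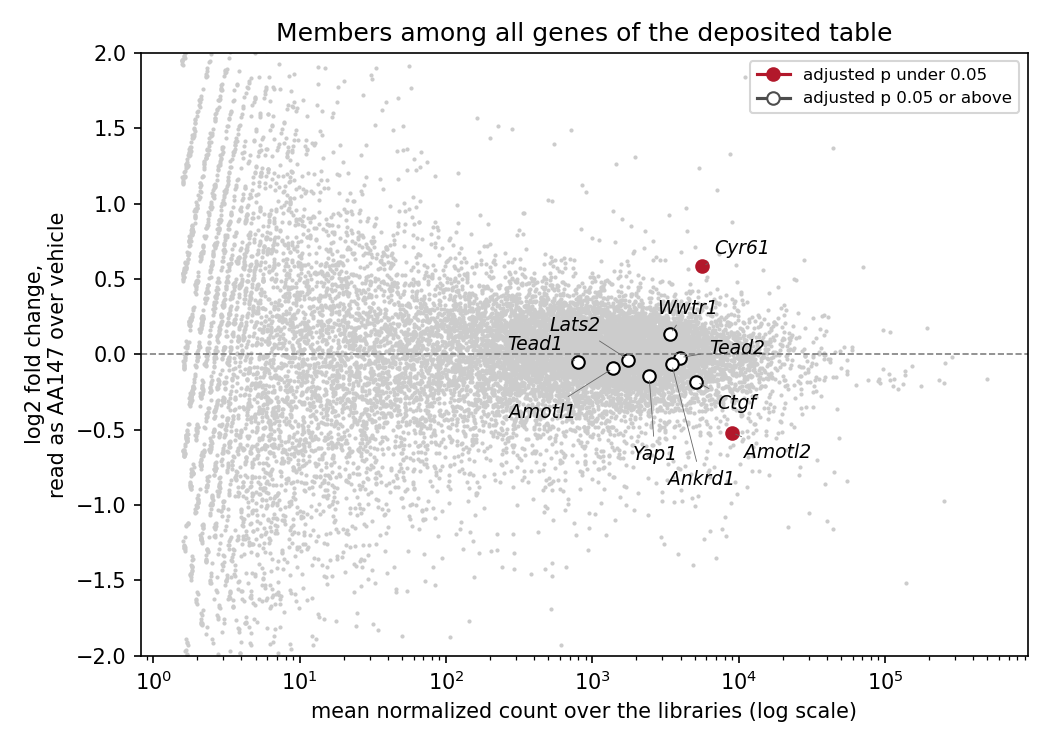
Log2 fold change (y axis) against mean normalized count (x axis, log scale) for the genes of the authors' deposited table (grey), with the 10 members marked; the 430 genes beyond 2 in either direction lie outside the plotted range. Cyr61 and Amotl2 lie toward the upper and lower sides of the cloud at means of 5599 and 8947, with many other genes beyond them. The other 8 members lie between these 2.

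Promoter sequences were compared because Cyr61, Amotl2 and Ankrd1 are known as TEAD targets and yet had a positive, a negative and an uncalled value. RefSeq promoter windows of 300 bases, from 250 before to 50 after the transcription start in assembly GRCm38.p6, were matched for 8 of the 10 genes, all but Ctgf and Tead1, with Cyr61 under its current symbol Ccn1. The core TEAD motif GGAATG, read on both strands (CATTCC is its reverse complement), was found in 6 of the 8, namely Yap1, Wwtr1, Cyr61, Ankrd1, Amotl2 and Lats2, and in neither Tead2 nor Amotl1. The same motif was found in 16.6% of the 27025 genes with a window and in 14.7% of all 32851 windows. The AP-1 motif TGANTCA and the CArG box, the motif of SRF, were found in 0 of the 8 genes, beside 8.97% and 1.81% of all genes with a window. No match thus overlapped a match of another motif. All 3 motifs were read on both strands. A match of letters is a description of the window and does not show that a factor binds there.

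The 250 bases before the start are given for these 3 target genes, 5′ to 3′ on the strand of the gene, with the TEAD core in capitals. They lie at chr3:145649986-145650235 on the minus strand for Cyr61, chr9:102717554-102717803 on the plus strand for Amotl2 and chr19:36119845-36120094 on the minus strand for Ankrd1.
Cyr61: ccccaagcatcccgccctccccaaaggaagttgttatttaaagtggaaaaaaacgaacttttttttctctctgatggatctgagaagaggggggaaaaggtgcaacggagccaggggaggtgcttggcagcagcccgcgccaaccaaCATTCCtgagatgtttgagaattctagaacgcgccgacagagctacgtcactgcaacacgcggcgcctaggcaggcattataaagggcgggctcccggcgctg
Amotl2: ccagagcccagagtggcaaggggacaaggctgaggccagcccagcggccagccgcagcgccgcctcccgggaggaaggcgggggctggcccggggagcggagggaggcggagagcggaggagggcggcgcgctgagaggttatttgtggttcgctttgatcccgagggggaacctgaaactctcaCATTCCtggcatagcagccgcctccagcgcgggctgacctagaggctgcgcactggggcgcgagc
Ankrd1: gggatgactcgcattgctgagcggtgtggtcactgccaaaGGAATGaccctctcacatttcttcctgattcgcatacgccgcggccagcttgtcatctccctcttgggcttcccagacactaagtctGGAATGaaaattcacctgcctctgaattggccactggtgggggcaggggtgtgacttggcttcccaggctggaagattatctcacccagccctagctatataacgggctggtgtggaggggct
Cyr61 and Amotl2, called in opposite directions, each held 1 core in this stretch, beginning 103 and 65 bases before the start. In both it reads CATTCC on the strand of the gene and is followed by the bases tg. Ankrd1, which was not called, held 2 cores, beginning 210 and 123 bases before the start, on the other strand. The core was present in both called genes and also in the uncalled Yap1, Wwtr1, Lats2 and Ankrd1. With 2 called genes among the 8, a link between the motif and the calls was not tested.

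The cores of the 2 coactivator genes are given with 10 bases on either side. The core begins 141 bases before the start in Yap1. In Wwtr1 it begins 136 bases before the start of the first of 2 overlapping windows. The second window of Wwtr1 has another start, and the same core lies further from that start.
Yap1: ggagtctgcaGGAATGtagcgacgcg
Wwtr1: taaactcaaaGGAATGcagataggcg
In the GRCm38.p6 assembly they lie at chr9:8004722-8004747 and chr3:57576031-57576056, both on the minus strand, and neither gene was called. In Lats2 the core begins at base 5 of the transcript in 1 of its 2 windows. In the windows with a core, the GC content of the 250 bases before the start ranged from 54.8% in Cyr61 to 76.4% in Yap1, with the stretch of Amotl2 at 70.4% and that of Ankrd1 at 55.6%.

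**Figure D3:**
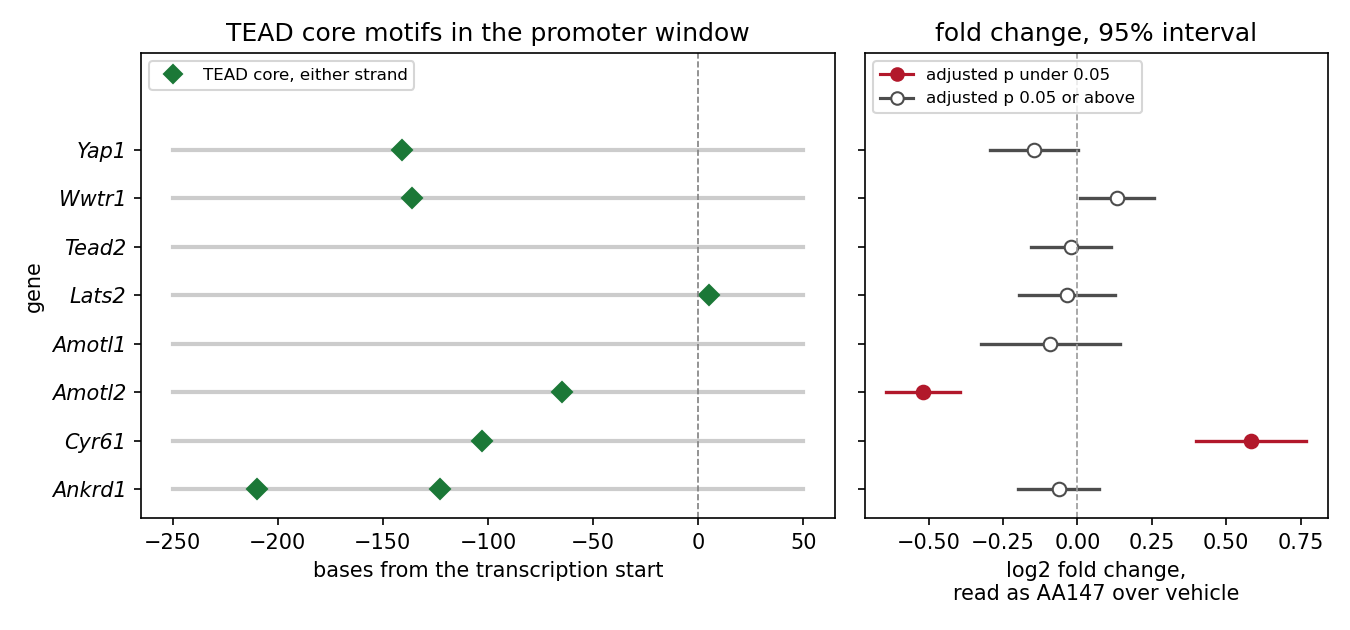
Left, position of the TEAD core (diamonds, bases from the transcription start on the x axis) in the promoter windows of 8 genes; right, the log2 fold change with its 95% interval for the same genes. For Wwtr1 the position is that in the first of its 2 windows. Genes with a core include the called Cyr61 and Amotl2 and the uncalled Yap1, Wwtr1, Lats2 and Ankrd1.

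Other genes of a published signature of YAP and TAZ targets fell more often than they rose. Of 17 such genes, 14 had a row, and Igfbp3, Fjx1 and Nt5e were not analysed here. In the authors' deposited table, 5 of the 14 fell, 1 rose and 8 did not pass, beside 11.1% negative and 9.05% positive calls among all genes tested. Among genes within the range of means of the members, the shares were 14% negative and 12.6% positive. The median of the targets' means was 2368, against 740 for all genes tested. The 14 targets had a median log2 fold change of -0.17, against 0.01 for all genes tested. With a required absolute log2 fold change of 0.5, 0 of them were called. Mesenchymal markers fell in the same comparison, 6 of 9 beside 11.1% of all genes tested, and their part in these falls was not tested.

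Ccdc80, which encodes a secreted matrix protein, fell by 0.40 on the log2 scale (adjusted p 4.23e-07, SE 0.072) in the authors' deposited table. Asap1, an ARF GTPase activator with a mean of 20780, fell by 0.33 (adjusted p 1.24e-07, SE 0.055) in the authors' deposited table. F3, which encodes tissue factor, the starter of blood coagulation, fell by 0.31 (SE 0.072) and the forkhead factor gene Foxf2 fell by 0.30 (SE 0.102) in the authors' deposited table. Myof, a membrane repair gene, fell by 0.23 (adjusted p 0.00275, SE 0.062) in the authors' deposited table. These falls were each smaller than that of Amotl2. The called positive gene was Gadd45b, a stress-inducible gene that is also a target of other stress pathways, which rose by 0.35 (adjusted p 0.00287, SE 0.095) in the authors' deposited table. Axl, a receptor tyrosine kinase gene often used as a YAP target and the most abundant of this list at a mean of 22616, lay at 0.11 (adjusted p 0.211, SE 0.064) in the authors' deposited table. TEAD cores were found in 3 of the 11 genes of this list with a promoter window (Axl, Crim1 and Ptpn14), beside 16.6% of all genes with a window. None of these 3 was called, beside 20.2% of all genes tested, and a link between motif and calls was not tested.

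Most of the other Hippo pathway genes, which are kinases, adaptors, junction proteins and other regulators of LATS or YAP, did not pass the test. Of 26 genes, Lats1 and Amot included, 25 had a row, and Fat4 was not analysed here. In the authors' deposited table, 1 of the 25 rose, 2 fell and 22 did not pass, which is 3 called in 25 beside 20.2% of all genes tested. A further called gene of this list is not reported here and is left out of these counts, which lowers the share called. Their median log2 fold change was -0.03. With a required absolute log2 fold change of 0.5, 0 of them were called. The core kinase genes Stk3 and Stk4, which encode MST2 and MST1, lay at -0.16 (SE 0.076) and 0.15 (SE 0.100), and the adaptor genes Sav1, Mob1a and Mob1b at -0.03, -0.13 and 0.13 in the authors' deposited table. Nf2, which encodes the tumour suppressor merlin, lay at -0.13 (SE 0.069) in the authors' deposited table. None of these 6 genes passed.

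The called genes of this list were Map4k4, Frmd6 and Taok2. Map4k4, a kinase that can act beside the MST kinases on LATS, rose by 0.29 (adjusted p 6.99e-06, SE 0.057) in the authors' deposited table. Frmd6, a membrane-linked activator of the cascade, fell by 0.38 (adjusted p 0.000204, SE 0.087) in the authors' deposited table. Taok2, a kinase upstream of MST, fell by 0.17 (adjusted p 0.0381, SE 0.064) in the authors' deposited table.

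Among 11 other TEADs and nuclear partners of YAP, 8 had a row and Vgll1, Vgll2 and Tp73 were not analysed here. Of these 8, 1 rose, 1 fell and 6 did not pass in the authors' deposited table, a share of calls near the 20.2% of all genes tested. The 8 genes had a median of 0.03. Runx1, a transcription factor that can act with YAP, rose by 0.44 (SE 0.092, adjusted p 3.90e-05), and Vgll3, which encodes a cofactor that competes with YAP for TEADs, fell by 0.47 (adjusted p 0.00995, SE 0.146) in the authors' deposited table. Vgll4, the best known inhibitory cofactor of this kind, lay at -0.15 (adjusted p 0.295, SE 0.097) in the authors' deposited table.

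**Figure D4:**
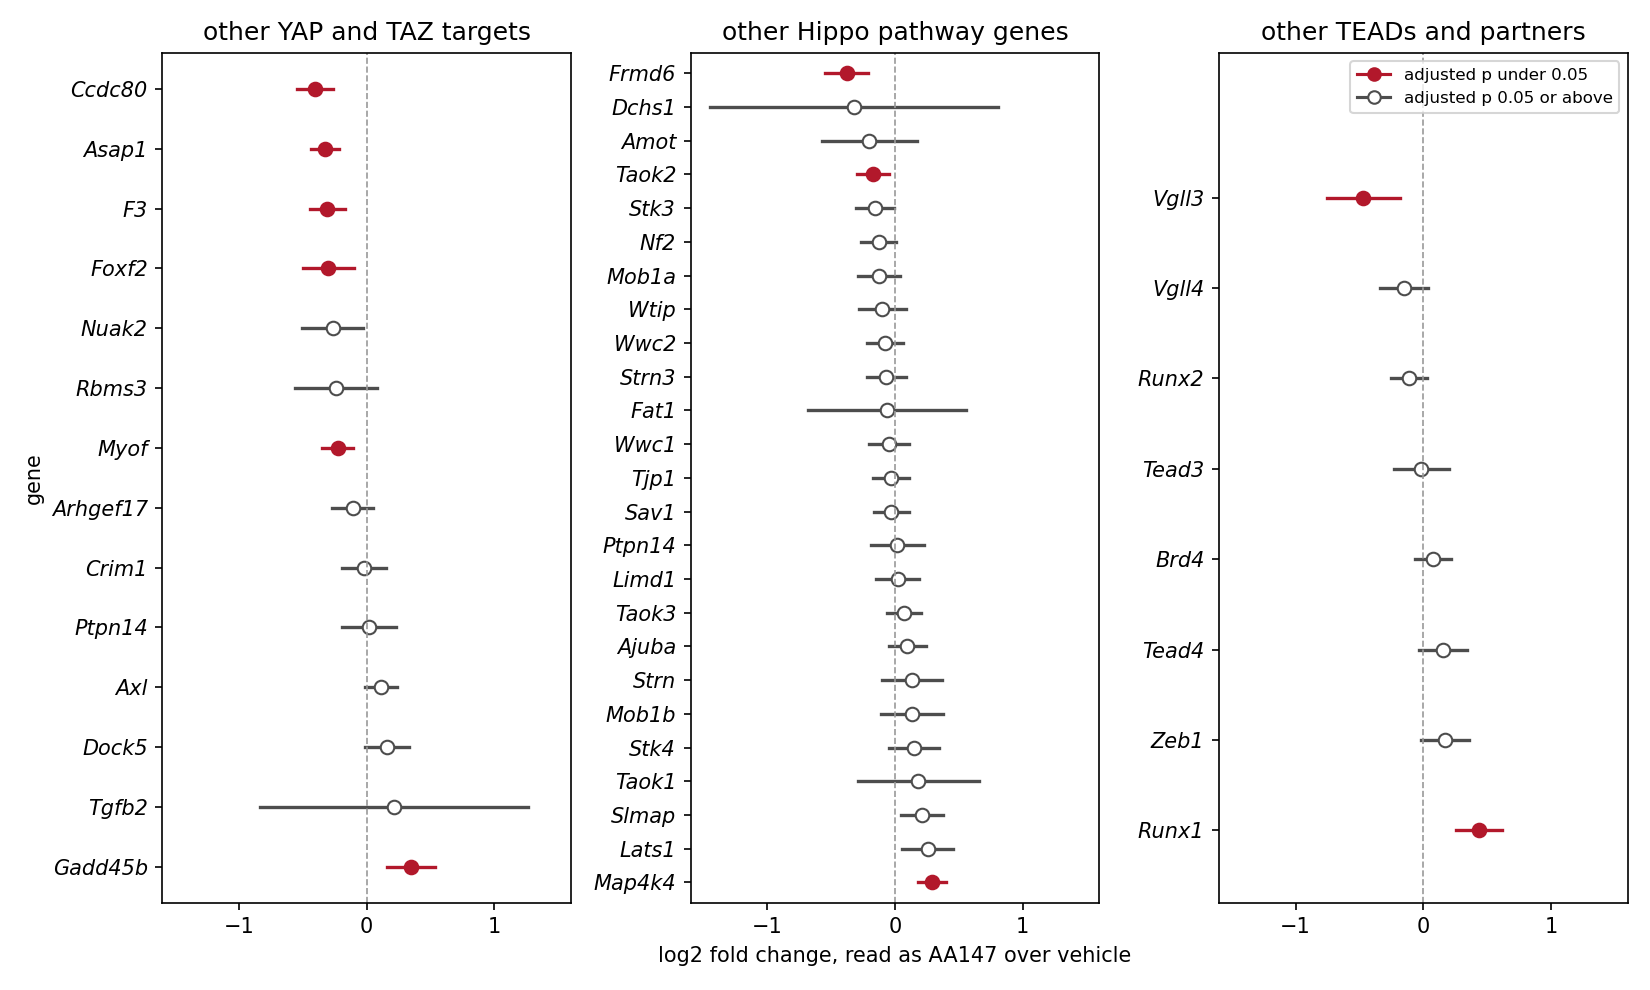
Log2 fold change with 95% intervals (x axes) of genes in 3 lists (y axes) in the authors' deposited table; filled red points have an adjusted p under 0.05, and Ptpn14 belongs to both of the first lists. Of the targets on the left 5 of 6 called genes are negative, while the middle panel has 1 positive and 2 negative calls and the right panel 1 of each.

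Cyr61, Ctgf and Ankrd1 also answer to serum response factor (SRF) and to TGF-beta. Of 17 genes under those regulators, 16 had a row and 13 an adjusted p, and Myl9 was not analysed here. In the authors' deposited table, 3 of the 13 fell and 10 did not pass, beside 20.2% called and 11.1% called negative among all genes tested, with a median of 0.01 over the 16. A further called gene of this list is not reported here and is left out of these counts, which lowers the share called. Thbs1 fell by 0.35 (SE 0.065), Itgb5 fell by 0.35 (SE 0.077) and Filip1l fell by 0.18 (SE 0.068) in the authors' deposited table. Of the 16 values, 9 lay above 0 and 7 below. Smad7, at 0.38 (SE 0.156), and Skil, at 0.34 (SE 0.151), were not called in the authors' deposited table. Srf itself lay at -0.07 (SE 0.070) and its target Vcl at -0.02 (SE 0.070) in the authors' deposited table, and neither was called.

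The smallest change that could be called differed between the genes. An adjusted p under 0.05 corresponded to an unadjusted p of at most 0.00999. A gene thus needed a log2 fold change of at least 2.58 times its SE. That is 0.16 for Wwtr1 and Amotl2, 0.18 for Tead2 and Ankrd1, 0.19 for Ctgf and Yap1, 0.21 for Lats2, 0.24 for Cyr61, 0.31 for Amotl1 and 0.61 for Tead1. An estimate for Tead1 of the size seen in Cyr61 would thus not have been called. The SE of Tead1 was 2.43 times the median of the 500 genes nearest in mean, and that of Amotl1 1.44 times. The Hippo pathway genes Fat1 (SE 0.32), Taok1 (SE 0.24) and Amot (SE 0.189) stood out likewise in the authors' deposited table, at 5.32, 3.18 and 2.62 times the median. Tead1, Amotl1, Fat1 and Taok1 have long transcripts, of 9969, 8985, 14996 and 12454 bases, and that of Amot has 6957. Of genes with a mean of 100 or more, 1.72% had an SE at least 1.5 times that median, and among the longest of 10 classes by transcript length the share was 14%. The part of transcript length in these errors was not tested.

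**Figure D5:**
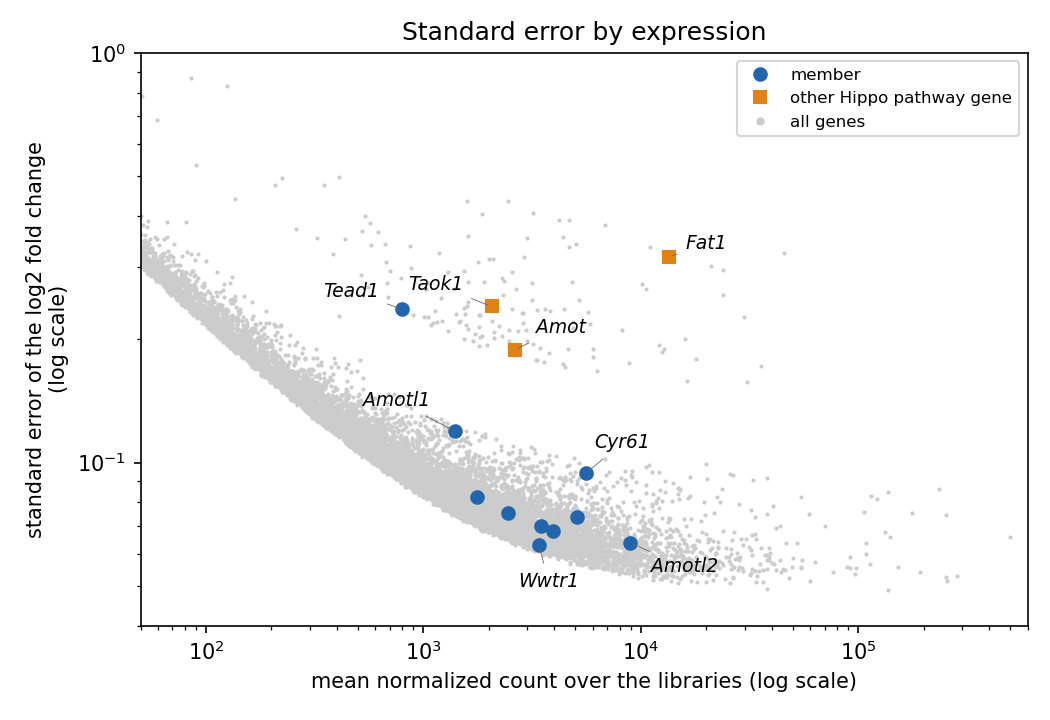
Standard error of the log2 fold change (y axis, log scale) against mean normalized count (x axis, log scale, from 50) in the authors' deposited table, with the 10 members as circles and 3 other Hippo pathway genes as squares. Tead1 at 0.24 lies above the band of genes with a like mean, as do Taok1 at 0.24, Amot at 0.189 and Fat1 at 0.32.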

How the data were processed

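The libraries were 3 from HT22 cultures with AA147 and 3 with vehicle. The submitters' processing notes name the mouse build mm9 and DESeq2, and the aligner, counter and annotation are not given in the sources used here. Per the file headers, the authors deposited DESeq2's results: a mean normalized count per gene (a signal scaled to an average library), a log2 fold change with its standard error, a score (the test statistic) and a p-value with its adjusted form. A Benjamini-Hochberg adjustment recomputed for the 13597 adjusted genes gave the deposited values, with a largest difference of 7.58e-07. The other 2875 genes had means of at most 8.41 and no adjusted p.

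From these, 95% intervals (normal, from the deposited SE), implied group averages and counts of genes with an adjusted p under 0.05 were computed with Python 3.11.15, pandas 2.3.3 and SciPy 1.17.1. Only the calling code was tested on simulated data. Transcript lengths were those of GENCODE M39 canonical transcripts, known for 86.2% of genes, matched by symbol or older RefSeq symbol, and promoters came from RefSeq. The members and gene lists were chosen with earlier results of these data known. Named were all 10 members and, of each other list, called genes up to the 5 largest in each direction, and genes without a row. A called gene in each of 2 lists, the Hippo pathway list and that of SRF and TGF-beta targets, is not reported here and is left out of the counts of its list. Genes named beyond that rule were chosen after their values were seen. The depth of each library is unknown, so precision is given by the SE. Alternatives were other thresholds, adjustments, filters, centring and a length correction.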

Additional observations from a re-analysis of the deposited data

How the results depend on the processing

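No paired analysis was possible because no column holds values of a single library. The replicate block, leaving out each replicate, and other normalizations or tools were therefore not run. Of the 7 alternatives run, only centring and the length correction change a fold change. Under the others, direction and size were fixed in advance. No value of the 10 members moved by more than 0.06 on the log2 scale. Under all 7, 69 of their 70 values kept their direction and their side of the threshold. The exception was Ctgf, which passed at -0.19 after centring. Lats1 also passed when the adjustment covered only means of 100 or more, which gave 4 called Hippo pathway genes. The count of called members stayed at 2 under the other 6. An adjusted p under 0.01 left 1818 of the 2741 calls in the whole table. Bonferroni left 774 calls in the whole table, 2 of the 6 YAP and TAZ targets (0 positive, 2 negative) and 1 of the 3 Hippo pathway genes. A least absolute log2 fold change of 0.5 left 796 calls in the whole table, 0 targets and 0 Hippo pathway genes. These 3 settings are stricter by construction, so an uncalled gene could not gain a call under them. The adjusted p of Ctgf ranged from 0.0434 to 0.0764 over the settings other than Bonferroni. For transcripts with large SEs, such as Tead1, a missed call does not show that the level was the same in both groups.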

Other observations

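The remaining genes of the CCN family, to which Cyr61 and Ctgf belong, were looked up after the values of those genes were seen. Wisp2, a family member that lacks the C-terminal domain of the others, had a mean of 74.7 and fell by 0.97 on the log2 scale (adjusted p 0.00194, SE 0.26) in the authors' deposited table. Wisp1, a family member known as a Wnt target, had a mean of 1581 and a log2 fold change of 0.15 (adjusted p 0.285, SE 0.097) in the authors' deposited table, and was not called. Nov was not analysed here. Wisp3 had a mean of 2.91 in the authors' deposited table, with a log2 fold change of 1.77 (SE 1.32) and no adjusted p. The 5 CCN genes with a row thus held 1 that rose (Cyr61), 1 that fell (Wisp2), 2 that did not pass (Ctgf and Wisp1) and 1 without an adjusted p. Among all genes tested, 20.2% were called, 9.05% positive and 11.1% negative.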
